A study of Mus musculus with 13 samples.

Results

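Type I interferon-stimulated genes were examined in mammary tumors, in lungs of mice bearing those tumors and in lungs of tumor-free mice. The set holds 37 genes, chosen by name from a list of well known interferon-induced genes and found by their symbols among the 46679 gene IDs of the deposited tables. All 37 were matched to 1 ID each. Expression played no part in choosing them, but the list was drawn up with earlier results of these data known.

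The host animals were female FVB mice aged 10 weeks, a wild-type inbred strain, and the labels name no engineered allele in them, while the cancer cells of the tumors carry a transgene. The first group consisted of 3 mammary tumors, from mice 6877, 6880 and 6881, which grew for 2 weeks from 250000 Met1 cells placed in the inguinal mammary fat pad. Met1 is a mouse mammary carcinoma line derived from an FVB mouse with a polyoma middle T transgene driven by the MMTV promoter, so the 3 tumors share 1 cell line of origin while their stroma and leukocytes come from the host. The second group was the lungs of 4 such tumor-bearing mice, 6877, 6879, 6880 and 6881. The third was the lungs of 4 mice with no tumor, 6886, 6887, 6888 and 6893, and whether these had a sham injection is not stated in the labels. The study asked what a tumor at a distance does to gene expression in the lung. Libraries were prepared in 2 batches. Batch 2 held all tumors, tumor-bearing lung 6877 and a library of each normal lung, and batch 1 held tumor-bearing lungs 6879, 6880 and 6881 and second libraries of normal lungs 6886 and 6888.

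Interferons alpha and beta bind the receptor pair IFNAR1 and IFNAR2, and the kinases JAK1 and TYK2 then pass the signal on. STAT2 and IRF9 enter the complex ISGF3, which binds the interferon-stimulated response element in the promoters of its target genes. The products block viral RNA and protein synthesis, sense foreign nucleic acid and tune the response itself. In tumors and in lung the same genes are known as a readout of interferon made by, or reaching, epithelial, stromal and immune cells.

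The promoter letters of this element are shown for 5 members because they carry the contrast reported below, genes that share the element but differ in their levels in the tumors. The stretches come from RefSeq promoter windows of 300 bases on GRCm38.p6, 250 before to 50 after the start, and are printed 5′ to 3′ on the gene's strand. Capitals mark every match, on either strand, to the searched letters of the element: GAAA, any 2 bases, GAAA.
Isg15, chr4:156200855-156200916, minus strand: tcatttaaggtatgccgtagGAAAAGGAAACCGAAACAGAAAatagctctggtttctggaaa
Oas1a, chr5:120907510-120907565, minus strand: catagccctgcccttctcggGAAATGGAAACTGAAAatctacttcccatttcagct
Ifit1, chr19:34640765-34640833, plus strand: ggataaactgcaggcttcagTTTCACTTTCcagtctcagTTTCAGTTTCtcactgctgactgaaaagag
Ifit3, chr19:34583353-34583436, plus strand: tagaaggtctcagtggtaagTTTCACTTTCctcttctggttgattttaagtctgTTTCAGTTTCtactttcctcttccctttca
Ifit3b, chr19:34607749-34607832, plus strand: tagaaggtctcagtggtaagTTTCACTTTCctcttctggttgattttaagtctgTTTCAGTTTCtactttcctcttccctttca
The Ifit3 and Ifit3b stretches differ by 0 bases.

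Promoter windows were matched for 27 of the 37 members. The letters of the element were found in 12 of these 27 members (44.4%), against 1079 of 27025 genes of the whole promoter table (3.99%). They were present in 7 of the 16 matched members that were higher in tumors than in normal lungs (43.8%) and in 5 of the 11 matched members that were not called (45.5%). Both strands were searched. A match describes the letters of the window and does not show binding.

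Counts were scaled to counts relative to library size (CPM) with TMM factors over all 13 libraries, and fold changes come from edgeR's quasi-likelihood test with Benjamini-Hochberg adjustment over all genes tested. A gene is called when its adjusted p is below 0.05. The libraries held 8321037 to 13982903 estimated counts, and the 37 members together took 0.0471% to 0.1141% of them. Alveolar epithelial marker genes summed to 234 to 463 CPM in tumors, 6790 to 13400 CPM in tumor-bearing lungs and 12600 to 14700 CPM in normal lungs of batch 2. Markers of mammary or simple epithelium summed to 1450 to 1840 CPM in tumors, 264 to 317 CPM in tumor-bearing lungs and 251 to 291 CPM in normal lungs of batch 2. By these sums the tissues matched their labels. In tumors against normal lungs 1 alveolar marker was called higher (log2 fold change 1.41) and 9 lower. Of the mammary or simple epithelium markers, 7 were called higher and 1 lower (−4.18). A single noncoding transcript, Rn7s1, made up 5.55% to 37.793% of the library totals. Values per animal are listed below in the order 6877, 6880 and 6881 for tumors, 6877, 6879, 6880 and 6881 for tumor-bearing lungs, and 6886, 6887, 6888 and 6893 for normal lungs. Unless batch 1 is named, normal lung values are those of batch 2, the batch of the tumors.

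In tumors, 22 of the 37 members were higher than in normal lungs and 0 were lower, in a fit of 3 tumors against 4 normal lungs of the same batch. In that comparison 29.4% of all 18038 genes tested were called higher and 27.4% lower. The median log2 fold change of the members was 0.91, against −0.02 over all genes, and 30 members had a positive value. Libraries did not overlap between tumors and normal lungs for 23 members, all higher in tumors, where 29.6% of all genes were higher in this sense and 30.3% lower. Of the 22 calls, 16 held under all 18 alternative analyses, and those of Cmpk2, Ifi35, Ifih1, Irf9, Mx1 and Trex1 did not. Oas2 and Oasl1 passed the filter on low counts only through the tumors and so are no support for these counts. Without them 20 of 35 members were higher (57.1%) and 0 lower, with a median of 0.81, and the called ones ranged from Zbp1 at 23.6-fold to Ifih1 and Ifi35 at 1.46-fold. In bulk tissue, more cells of an expressing type and more RNA per cell cannot be told apart.

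**Figure D1:**
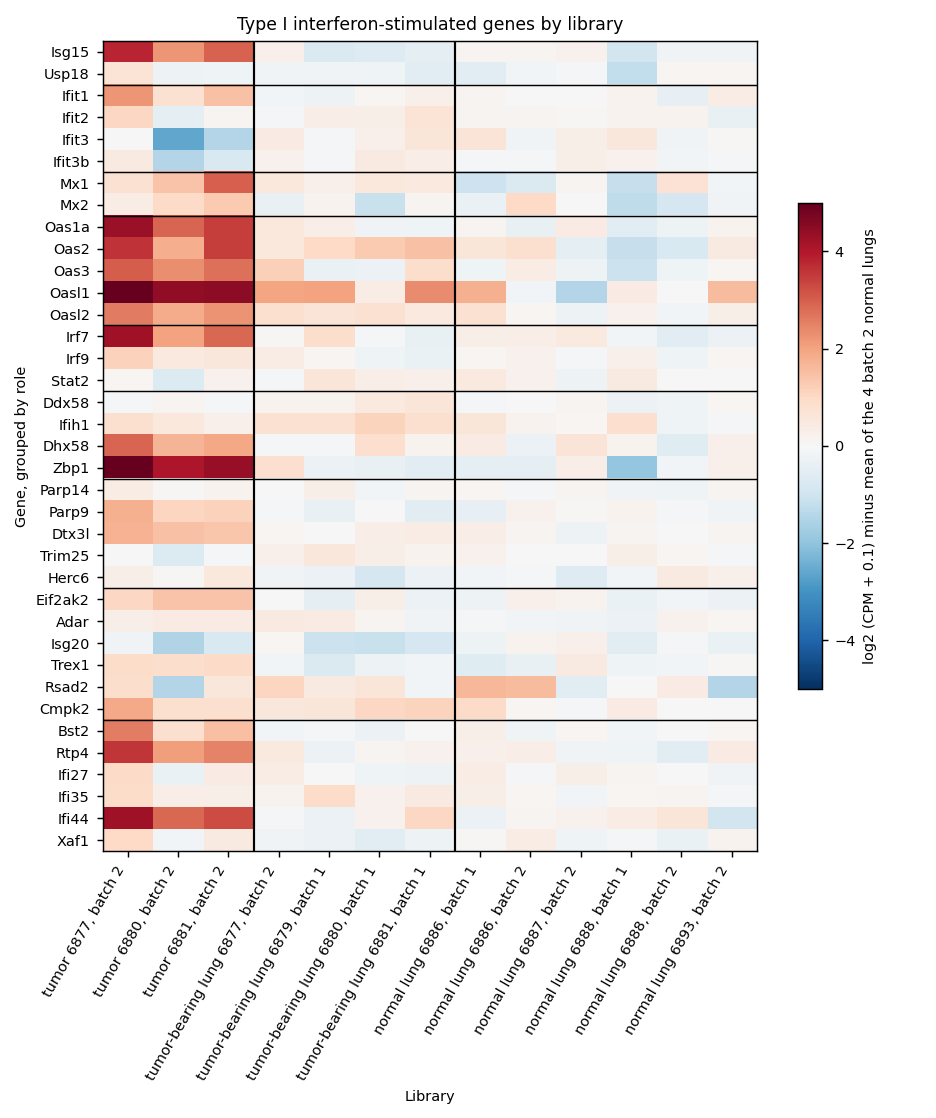
Each cell is the log2 (CPM + 0.1) of a gene in a library minus the mean of the 4 batch 2 normal lungs, with genes grouped by role and libraries grouped as tumors, tumor-bearing lungs and normal lungs. The 3 tumors are red for the 2-5A synthetases, Isg15, Irf7, Zbp1, Rtp4 and Ifi44, and blue in tumors 6880 and 6881 for Ifit3, Ifit3b and Isg20, while the lung columns stay near white for most genes.

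The ubiquitin-like modifier and its protease differed. Isg15, which encodes the modifier that is joined to target proteins, had 51.2, 16.9 and 28.7 CPM in tumors, 4.25, 2.11, 2.25 and 2.54 CPM in tumor-bearing lungs and 3.94, 4.15, 3.16 and 3.19 CPM in normal lungs. Every tumor was above every lung, and the tumor level was 8.89-fold that of normal lungs (log2 fold change 3.15, SE 0.34, edgeR adjusted p = 5.93e-05). Usp18, whose product removes ISG15 and also restrains signaling at IFNAR2, had 14.4, 7.57 and 7.72 CPM in tumors, 8.02, 7.96, 7.72 and 6.02 CPM in tumor-bearing lungs and 8.26, 8.47, 9.66 and 9.76 CPM in normal lungs. Tumor 6877 was above the lungs and the other two tumors were not, and the log2 fold change of 0.13 (SE 0.25, edgeR adjusted p = 0.696) was not called. Its sign turned under upper-quartile scaling, library totals and TPM with a pseudocount of 0.1, and without tumor 6877.

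All 5 members from the 2-5A synthetase family were higher in tumors, 2 of them (Oas2 and Oasl1) genes that passed the filter on low counts only through the tumors. Family genes outside the 37 differed among themselves, as given after the members. OAS proteins sense double-stranded RNA and make short 2′-5′ linked adenylates that switch on RNase L. Oas1a had 48.6, 17.9 and 26.5 CPM in tumors, 3.38, 2.98, 2.06 and 1.96 CPM in tumor-bearing lungs and 1.79, 3.13, 1.93 and 2.65 CPM in normal lungs. Oas2 had 7.3, 2.03 and 6.63 CPM in tumors and 0.967, 0.339, 0.263 and 0.73 CPM in normal lungs. Oas3 had 12.3, 7.57 and 10.3 CPM in tumors and 1.86, 1.19, 1.23 and 1.55 CPM in normal lungs. For these 3 genes no tumor overlapped the normal lungs, with 13-fold, 9.03-fold and 6.88-fold higher levels in tumors for Oas1a, Oas2 and Oas3. Their edgeR adjusted p-values were 2.75e-05 for Oas1a, 0.00109 for Oas2 and 3.89e-05 for Oas3. Oasl1, a family member without synthetase activity that in mice limits IRF7 translation, had 9.7, 5.85 and 6.08 CPM in tumors, 0.966, 0.994, 0.257 and 1.3 CPM in tumor-bearing lungs and 0.149, 0.0, 0.176 and 0.73 CPM in normal lungs. Its log2 fold change of 4.76 (SE 0.66, edgeR adjusted p = 0.000255) rests on 2, 0, 2 and 8 normal lung counts. Oasl2, the most abundant family member in normal lung per length, had 50.4, 30.1 and 39.5 CPM in tumors, 14.5, 12.9, 13.9 and 11.7 CPM in tumor-bearing lungs and 8.78, 6.94, 7.55 and 10.0 CPM in normal lungs. Its log2 fold change was 2.27 (SE 0.21, edgeR adjusted p = 2.18e-05). Of the 75-base stretches of Oas1a transcripts, 47.6% also occur in Oas1g, so reads could be split between these 2 genes. Of the family genes outside the 37, Oas1g had 11.7, 5.7 and 10.3 CPM in tumors and 0.521, 0.677, 0.351 and 0.639 CPM in normal lungs. Oas1g was called higher in tumors, at a log2 fold change of 4.06, but passed the filter on low counts only through the tumors. Oas1b, typed as a polymorphic pseudogene by the gene annotation, was not called (0.66, edgeR adjusted p = 0.0989). It had 4.91, 2.73 and 5.46 CPM in tumors and 2.9, 2.46, 2.46 and 3.28 CPM in normal lungs. Oas1c had 2.99, 1.09 and 1.48 CPM in tumors and 1.04, 1.78, 3.34 and 3.56 CPM in normal lungs and was not called (−0.40, edgeR adjusted p = 0.528).

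**Figure D2:**
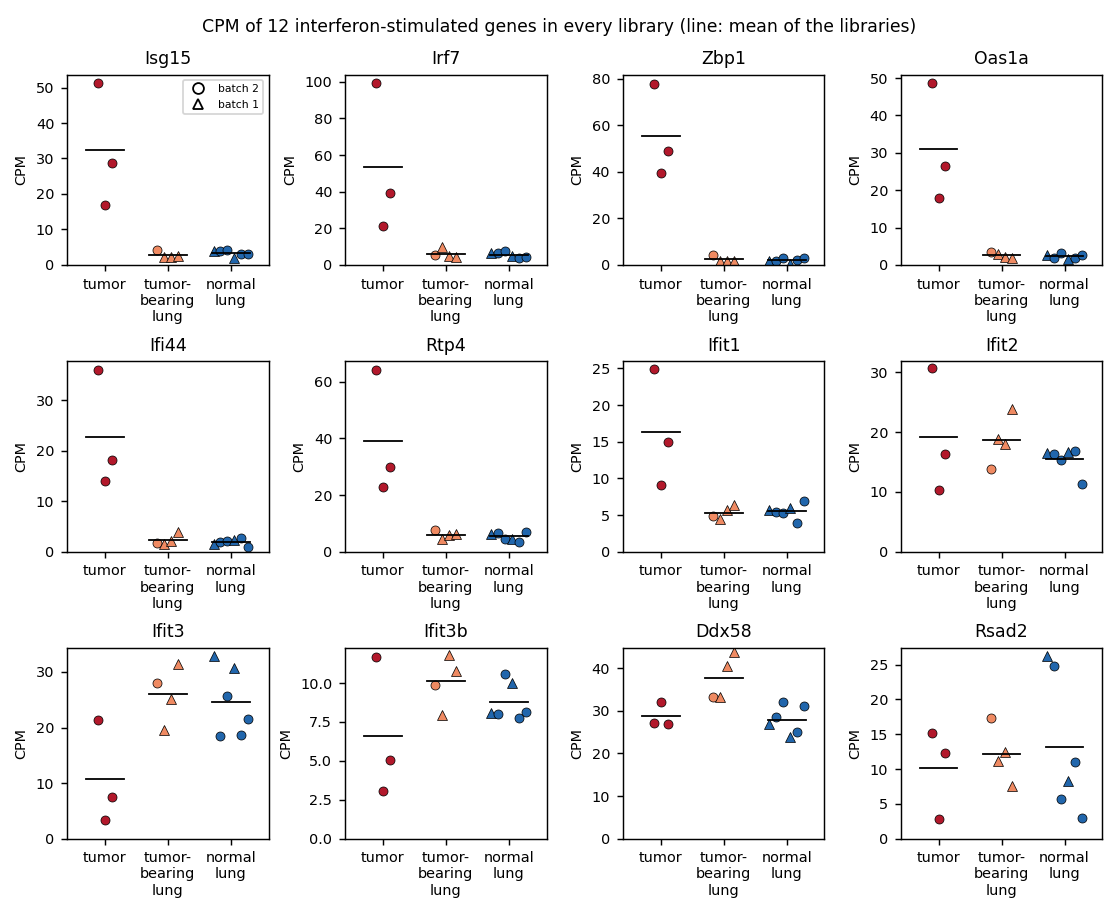
CPM of 12 members in every library, with tumors left of tumor-bearing lungs and normal lungs, circles for batch 2, triangles for batch 1 and lines for the mean of the libraries shown, which counts mice 6886 and 6888 by both of their libraries. The 3 tumors lie above every lung for Isg15, Irf7, Zbp1, Oas1a, Ifi44, Rtp4 and Ifit1, and among or below the lungs for Ifit2, Ifit3, Ifit3b, Ddx58 and Rsad2, except for tumor 6877 in Ifit2.

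The IFIT genes, neighbors on chromosome 19 whose products bind RNA with foreign 5′ ends, gave 1 call among 4. Ifit1 (chr19:34640871-34650009) ranged over 9.05 to 24.9 CPM in tumors and 3.95 to 6.93 CPM in normal lungs, a 3.01-fold difference (edgeR adjusted p = 0.00287). Ifit2 (chr19:34550694-34576419) was not called, at a log2 fold change of 0.35 (edgeR adjusted p = 0.387). Ifit3 (chr19:34583531-34588731) had 21.3, 3.36 and 7.41 CPM in tumors, 28.1, 19.5, 25.2 and 31.5 CPM in tumor-bearing lungs and 18.4, 25.6, 18.6 and 21.6 CPM in normal lungs. Tumors 6880 and 6881 were below every lung while tumor 6877 lay among them. The log2 fold change of Ifit3 was −1.0 (SE 0.49, edgeR adjusted p = 0.113), which was not called. Ifit3b (chr19:34607970-34613401) had 11.7, 3.04 and 5.07 CPM in tumors, 9.86, 7.96, 11.8 and 10.8 CPM in tumor-bearing lungs and 8.04, 10.6, 7.73 and 8.12 CPM in normal lungs, with the same 2 tumors below every lung and a log2 fold change of −0.40 (SE 0.40, edgeR adjusted p = 0.422). Without tumor 6877 both Ifit3 and Ifit3b were called lower in tumors. With tumor 6877 kept, voom and a fit of 13 libraries with a batch term also called Ifit3 lower. The call of Ifit3 thus depends on the test and the libraries used as well, while Ifit3b was called only without tumor 6877. Ifit1 and Ifit3 both hold the response-element letters printed above. Ifit3 shares 41.1% of its 75-base stretches with Ifit3b, so the split of reads between these 2 genes is uncertain.

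The dynamin-like GTPases gave 1 call among 2. Mx1, whose nuclear protein in mice can block influenza virus, had 2.63, 4.29 and 12.6 CPM in tumors and 0.893, 1.69, 2.55 and 1.37 CPM in normal lungs. All tumors were above the normal lungs, by little for tumor 6877, and the log2 fold change was 2.04 (SE 0.56, edgeR adjusted p = 0.0121). Without tumor 6881, the highest, Mx1 was no longer called. Whether these FVB mice make a working MX1 protein is not given in the labels. Mx2 is a paralog that the gene annotation types as a polymorphic pseudogene, so its RNA does not show that a working protein is made. Mx2 had 2.15, 3.28 and 4.21 CPM in tumors, 1.26, 1.86, 0.708 and 1.81 CPM in tumor-bearing lungs and 3.35, 1.69, 0.878 and 1.46 CPM in normal lungs. Normal lung 6886 lay among the tumors, and the log2 fold change of 0.81 (SE 0.46, edgeR adjusted p = 0.157) was not called, but was without that lung.

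Among the transcription factors, Irf7 and Irf9 were higher in tumors and Stat2 was not called. Irf7, which drives transcription of the interferon alpha genes and is itself interferon-induced, had 99.2, 21.5 and 39.1 CPM in tumors, 5.51, 9.57, 4.96 and 4.06 CPM in tumor-bearing lungs and 6.55, 7.45, 3.6 and 4.2 CPM in normal lungs. Its tumor level was 9.7-fold that of normal lungs (log2 fold change 3.28, SE 0.49, edgeR adjusted p = 0.000374). Irf9, the DNA-binding part of ISGF3, had 50.6, 32.3 and 34.5 CPM in tumors, 29.5, 24.6, 19.5 and 18.4 CPM in tumor-bearing lungs and 26.6, 21.3, 20.0 and 24.5 CPM in normal lungs. The tumors were above the lungs by 1.7-fold over normal lungs (log2 fold change 0.76, SE 0.19, edgeR adjusted p = 0.00662). Stat2, which encodes another part of ISGF3, averaged 18.8 ± 5.8 CPM in tumors (SD, n = 3) and 19.9 ± 2.71 CPM in normal lungs (SD, n = 4), with a log2 fold change of −0.08 (SE 0.24, edgeR adjusted p = 0.804). Irf7 overlaps Phrf1 on the opposite strand, and whether the counting used strand is not given in the sources used here.

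Of the nucleic acid sensors, Zbp1, Dhx58 and Ifih1 were higher in tumors and Ddx58 was not called. Zbp1, a sensor of Z-form nucleic acid that can start necroptosis, had 78.0, 39.5 and 49.0 CPM in tumors and 1.64, 2.96, 2.11 and 2.74 CPM in normal lungs. The lowest tumor was far above the highest lung, and the tumor level was 23.6-fold that of normal lungs (log2 fold change 4.56, SE 0.29, edgeR adjusted p = 2.42e-06). Dhx58, which encodes the RIG-I-like helicase LGP2, was 4.68-fold higher (edgeR adjusted p = 0.00103). Ifih1, which encodes the long double-stranded RNA sensor MDA5, had 22.9, 19.0 and 15.5 CPM in tumors and 14.8, 14.1, 11.3 and 12.4 CPM in normal lungs. The tumors were above these lungs by a log2 fold change of 0.54 (SE 0.18, edgeR adjusted p = 0.0283), a call lost in 10 of the 18 alternative analyses. Ddx58, which encodes RIG-I, the sensor of RNA with 5′ triphosphates, had 27.2, 32.0 and 26.9 CPM in tumors and 28.6, 32.0, 25.0 and 31.1 CPM in normal lungs. The groups overlapped, with a log2 fold change of −0.01 (SE 0.15, edgeR adjusted p = 0.949), the value nearest 0 among members.

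In the group of ADP-ribosyl transferases and E3 ligases, the partners Parp9 and Dtx3l were higher and Parp14, Trim25 and Herc6 were not called. Dtx3l, an E3 ligase that works in a complex with PARP9, had 87.7, 70.7 and 68.0 CPM in tumors, 27.9, 25.7, 32.2 and 33.5 CPM in tumor-bearing lungs and 28.4, 21.6, 25.5 and 28.6 CPM in normal lungs. All tumors were above all lungs (log2 fold change against normal lungs 1.54, SE 0.15, edgeR adjusted p = 3.4e-05). Parp9 was 2.57-fold higher (edgeR adjusted p = 0.000287), and the 2 genes overlap on opposite strands of chromosome 16. Trim25, the ligase that ubiquitinates RIG-I, had 59.6, 37.4 and 57.8 CPM in tumors, 72.4, 89.9, 73.7 and 68.7 CPM in tumor-bearing lungs and 60.3, 61.2, 65.6 and 57.0 CPM in normal lungs. Tumor 6880 was below the normal lungs, the others were at their lower end, and the log2 fold change was −0.23 (SE 0.18, edgeR adjusted p = 0.296). Parp14 had a log2 fold change of 0.21, and Herc6, the main ISG15 ligase of mice, of 0.27.

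Of the 6 enzymes that act on RNA, DNA or nucleotides, Eif2ak2, Cmpk2 and Trex1 were higher in tumors and Adar, Isg20 and Rsad2 were not called. Eif2ak2, which encodes the translation-blocking kinase PKR, was 2.47-fold higher (edgeR adjusted p = 0.00029), Cmpk2, a mitochondrial nucleotide kinase, 2.39-fold (edgeR adjusted p = 0.0046) and Trex1, a DNA exonuclease, 1.88-fold (edgeR adjusted p = 0.0132). For Trex1, 93.4% of its 75-base stretches also occur in Atrip on the same strand, so its counts are uncertain. Adar, which edits adenosines in double-stranded RNA, had 44.3, 48.1 and 48.4 CPM in tumors and 33.2, 32.6, 42.4 and 38.6 CPM in normal lungs. The tumors were above the normal lungs without overlap, but the log2 fold change of 0.37 (SE 0.15, edgeR adjusted p = 0.0564) was not called. Isg20, an exonuclease of RNA, had 16.9, 6.71 and 11.2 CPM in tumors, 20.1, 8.95, 8.69 and 10.6 CPM in tumor-bearing lungs and 21.7, 22.4, 17.6 and 15.2 CPM in normal lungs. Tumors 6880 and 6881 were below the normal lungs, and the log2 fold change of −0.73 (SE 0.29, edgeR adjusted p = 0.0588) was not called, although several alternative analyses, among them DESeq2 and voom, called it lower. Rsad2, which makes a chain-terminating nucleotide, ranged over 2.89 to 15.2 CPM in tumors and 2.92 to 24.8 CPM in normal lungs, with a log2 fold change of −0.14 (SE 0.71, edgeR adjusted p = 0.88). Its neighbor Cmpk2 on chromosome 12, transcribed from the other strand, was among the called genes.

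Among the membrane and other induced proteins, Rtp4, Ifi44, Bst2 and Ifi35 were higher in tumors. Rtp4, a receptor-transporting protein, had 64.2, 23.0 and 30.0 CPM in tumors, 7.54, 4.35, 5.86 and 6.23 CPM in tumor-bearing lungs and 6.7, 4.66, 3.6 and 7.12 CPM in normal lungs (log2 fold change against normal lungs 2.82, SE 0.37, edgeR adjusted p = 0.000182). Ifi44 had 36.0, 14 and 18.2 CPM in tumors, 1.74, 1.49, 2.12 and 3.84 CPM in tumor-bearing lungs and 2.01, 2.12, 2.81 and 0.912 CPM in normal lungs (log2 fold change 3.52, SE 0.41, edgeR adjusted p = 8.34e-05). For both genes each tumor was above each lung. Bst2, which encodes the virus-tethering protein tetherin, was 3.52-fold higher (edgeR adjusted p = 0.00155). Ifi35 had 29.7, 19.4 and 18.9 CPM in tumors and 16.7, 14.2, 16.9 and 14.6 CPM in normal lungs, above but close to them (log2 fold change 0.54, SE 0.19, edgeR adjusted p = 0.0348), and was no longer called in 13 of the 18 alternative analyses. Ifi27, the member with the highest level per length, had 51.0, 21.2 and 34.9 CPM in tumors, 34.4, 26.5, 22.6 and 22.2 CPM in tumor-bearing lungs and 24.5, 32.9, 26.1 and 23.5 CPM in normal lungs. The tumors lay on both sides of the normal lungs (log2 fold change 0.42, SE 0.27, edgeR adjusted p = 0.206). Xaf1, an antagonist of the apoptosis inhibitor XIAP, was not called either, at a log2 fold change of 0.48.

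For most members tumor 6877 was the highest or tumor 6880 the lowest. Tumor 6877 was the highest of the 3 for 29 of the 37 members, and for 19 of the 22 called ones, while tumor 6880 was the lowest for 28 and for 16 of the 22. The members' CPM summed to 1340 in tumor 6877, 737 in tumor 6880 and 927 in tumor 6881, against 560 to 595 in tumor-bearing lungs and 499 to 542 in normal lungs of batch 2. Not all members followed this order. Tumor 6877 was the lowest for 4 members, Mx1, Mx2, Eif2ak2 and Adar, tumor 6880 the highest for 2 and tumor 6881 the lowest for 5. These counts describe 3 animals and were not tested, and the same counts over all genes were not taken.

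Against the lungs of tumor-bearing mice, 16 of 37 members were higher in tumors and 0 were lower, where 22.6% of all 18297 genes were called higher and 23.7% lower. This fit used 11 libraries, 1 per mouse and tissue, with a batch term that rests on the lungs of both kinds, because 3 of the 4 tumor-bearing lungs were prepared in batch 1 and no tumor was. The comparison shares the tumors with the one against normal lungs, so the 2 are not independent. The median log2 fold change of the members was 0.84, against −0.10 over all genes. Zbp1 was 12.7-fold higher (log2 fold change 3.66, SE 0.41, edgeR adjusted p = 2.44e-05), Oas1a 9.17-fold (3.20, SE 0.44, adjusted p = 0.000125), Dtx3l 2.8-fold (1.49, SE 0.21, adjusted p = 0.000156) and Isg15 8.71-fold (3.12, SE 0.47, adjusted p = 0.000237). Irf9, Trex1, Ifih1, Ifi35, Mx1 and Cmpk2, called against normal lungs, were not called here, and whether the 2 comparisons differ for them was not tested. With the mouse as a replicate block, in a fit of all 13 libraries, 19 members were higher and 1, Ifit3, was lower. Irf9, Xaf1, Trex1 and Ifit3 were gained and 0 lost. Without tumor-bearing lung 6877, the only one in the tumors' batch, 12 were higher and 1 lower, and Dhx58, Oas3, Oas2, Ifit1 and Oasl1 were lost. With no batch term 22 were higher and 2 lower. In batch 2 alone, with 1 tumor-bearing lung assumed to vary like the other libraries, 14 were higher.

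**Figure D3:**
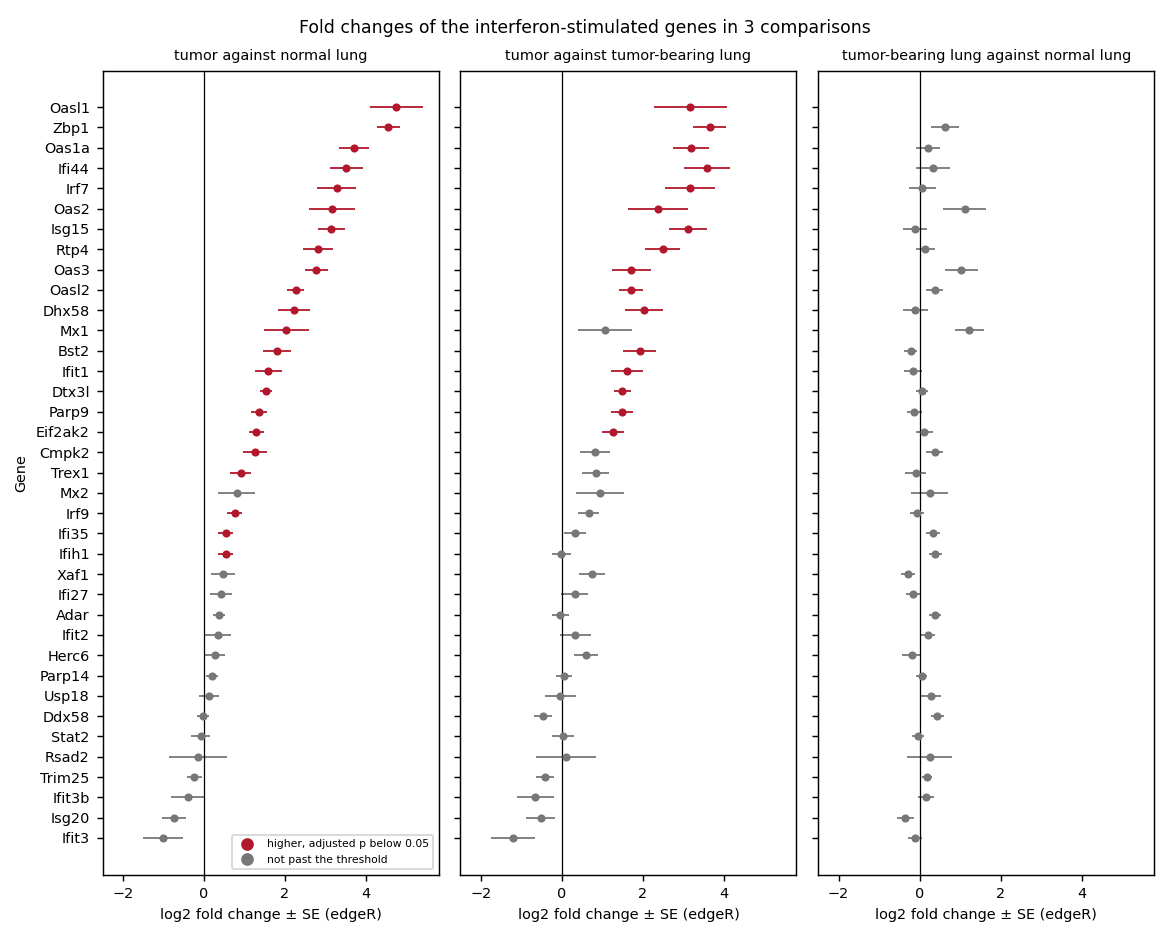
Log2 fold change with its standard error (edgeR) of each member in tumor against normal lung, tumor against tumor-bearing lung and tumor-bearing lung against normal lung, ordered by the first and red where the adjusted p is below 0.05. The first panel shows 22 red genes, the second 16 and the third 0, and Oasl1 has no point in the third because it did not pass the filter on low counts.

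Within each mouse that gave both tissues, 23 members were higher in the tumor than in the lung in all 3 animals, 3 were lower in all 3 and 11 were mixed. Of all 18297 genes, 33.6% were higher and 35.2% lower in all 3. The median log2 difference of the members was 1.07 in mouse 6877, 0.72 in mouse 6880 and 1.02 in mouse 6881, against −0.13, −0.00 and 0.01 over all genes. Zbp1 differed by 4.15, 4.38 and 4.80 on the log2 scale in mice 6877, 6880 and 6881, and Trex1 by 1.03, 1.08 and 1.08. Rsad2 differed by −0.19, −2.06 and 0.70 in the same order, and Ifit3 by −0.40, −2.85 and −2.06. Zbp1 and Trex1 were thus steady between animals while Rsad2 and Ifit3 were not. Tumor and lung were prepared in the same batch in mouse 6877 alone.

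In the lungs of tumor-bearing mice, 0 of the 36 members tested were called against normal lungs. In this fit of 4 tumor-bearing and 4 normal lungs with a batch term, 0.0359% of all 16727 genes were called. Oasl1 did not pass the filter on low counts, and Mx1, Oas3 and Zbp1 passed it only through the tumor-bearing lungs. Before adjustment, 5 members had p below 0.05 and were higher in tumor-bearing lungs, and 0 were lower. Over all genes 2342 had p below 0.05, of which 1026 (6.13% of those tested) were higher. Without Mx1, Oas3 and Zbp1 this was 3 of 33 members, with a median log2 fold change of 0.11. DESeq2, voom and limma on TPM also called 0 members, though DESeq2 gave no adjusted p for Mx1, Oas2, Oas3 and Zbp1. The median log2 fold change of the members was 0.14, against 0.01 over all genes, with 23 of 36 positive. It was 0.16 against 0.04 over all genes in batch 1 alone and 0.19 against −0.02 in batch 2 alone, and it turned to −0.18 against −0.23 over all genes on the TPM scale. This comparison shares normal lungs with the comparison of tumors.

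Among the 8 members with the smallest p in the lungs, Mx1 and Ddx58 had libraries that did not overlap between the groups when each mouse was counted once, where 2.65% of all genes were higher in this sense. Mx1 had 1.86, 2.25 and 2.17 CPM in tumor-bearing lungs of batch 1 and 0.69 and 0.622 CPM in normal lungs of that batch, while batch 2 gave 2.22 CPM in tumor-bearing lung 6877 and 0.893, 1.69, 2.55 and 1.37 CPM in normal lungs. The second library of normal lung 6888, at 2.55 CPM, was above every tumor-bearing lung. The log2 fold change was 1.23 (SE 0.35, edgeR adjusted p = 0.217), with 1.69 in batch 1 alone and 0.46 in batch 2 alone. Ddx58 had 33.2, 40.6 and 43.7 CPM in tumor-bearing lungs of batch 1 and 26.9 and 23.9 CPM in normal lungs of that batch, while batch 2 gave 33.2 CPM in tumor-bearing lung 6877 and 28.6, 32.0, 25.0 and 31.1 CPM in normal lungs. Every tumor-bearing lung was above every normal library, with a log2 fold change of 0.44 (SE 0.16, edgeR adjusted p = 0.297), or 0.65 in batch 1 alone and 0.19 in batch 2 alone.

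The other 6 overlapped between the groups. Oas3 had 3.38, 1.12, 1.16 and 2.75 CPM in tumor-bearing lungs, against 1.23 and 0.622 CPM in normal lungs of batch 1 and 1.86, 1.19, 1.23 and 1.55 CPM in those of batch 2. Oas2 had 0.773, 1.12, 1.42 and 1.59 CPM in tumor-bearing lungs, against 0.844 and 0.178 CPM in normal lungs of batch 1 and 0.967, 0.339, 0.263 and 0.73 CPM in those of batch 2. Zbp1 had 4.25, 1.86, 1.74 and 1.59 CPM in tumor-bearing lungs, against 1.61 and 0.533 CPM in normal lungs of batch 1 and 1.64, 2.96, 2.11 and 2.74 CPM in those of batch 2. These 3 genes rest on few reads, and their log2 fold changes were 1.03 (SE 0.41, edgeR adjusted p = 0.32) for Oas3, 1.11 (SE 0.52, adjusted p = 0.378) for Oas2 and 0.63 (SE 0.35, adjusted p = 0.454) for Zbp1. Adar had 49.9, 48.4, 40.0 and 32.7 CPM in tumor-bearing lungs, against 34.6 and 30.1 CPM in normal lungs of batch 1 and 33.2, 32.6, 42.4 and 38.6 CPM in those of batch 2. Ifih1 had 22.5, 22.3, 28.1 and 23.1 CPM in tumor-bearing lungs, against 19.7 and 23.6 CPM in normal lungs of batch 1 and 14.8, 14.1, 11.3 and 12.4 CPM in those of batch 2. Ifi35 had 17.6, 29.1, 18.0 and 21.2 CPM in tumor-bearing lungs, against 18.9 and 16.8 CPM in normal lungs of batch 1 and 16.7, 14.2, 16.9 and 14.6 CPM in those of batch 2. The log2 fold changes of these more abundant genes were 0.38 (edgeR adjusted p = 0.326) for Adar, 0.39 (adjusted p = 0.344) for Ifih1 and 0.33 (adjusted p = 0.442) for Ifi35, and with that of Ddx58 they turned negative on the TPM scale.

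The 2 normal lungs with libraries in both batches show how far a member moves between preparations. The median absolute log2 difference between batch 2 and batch 1 was 0.25 over the 37 members in mouse 6886 and 0.37 in mouse 6888. Signed, the medians were −0.00 and 0.01, so the members had no common shift. Single genes moved more. Mx1 differed by 0.31 and 1.78, Zbp1 by 0.02 and 1.70 and Usp18 by 0.38 and 1.30 in mice 6886 and 6888, and Ifit3 by −0.83 and −0.72. In batch 2, 3 members in mouse 6888 and 1 in mouse 6886 were more than 1 log2 unit higher than in batch 1. In each mouse 1 member was more than 1 log2 unit lower, namely Oasl1 at −1.67 in mouse 6886, on few counts, and Ifih1 at −1.05 in mouse 6888. Ifih1 was also lower in batch 2 in mouse 6886, at −0.41, and the batch 2 libraries are those against which it was called in tumors. A difference between mice could be stable across batches: Rsad2 had 26.2 CPM in batch 1 and 24.8 CPM in batch 2 in mouse 6886, against 8.35 and 11.0 CPM in mouse 6888.

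**Figure D4:**
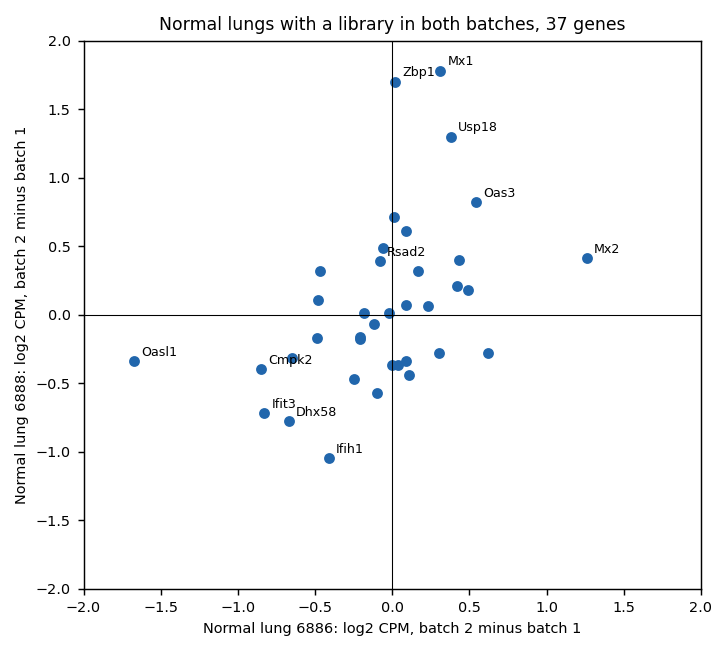
Each point is a member, placed by its log2 CPM in batch 2 minus batch 1 in normal lung 6886 (horizontal) and normal lung 6888 (vertical), with the genes farthest from 0 and Rsad2 named. Most points lie within 0.5 of 0, while Mx1, Zbp1 and Usp18 lie 1.30 to 1.78 higher in batch 2 in mouse 6888.

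Levels were compared between genes in TPM, which divides by transcript length, within batch 2. In tumors 20 members were above 1 TPM, against 8 in normal lungs. The highest in tumors were Ifi27 at 8.82 ± 4.56, Irf7 at 8.12 ± 6.84, Bst2 at 7.64 ± 5.38, Isg15 at 5.45 ± 3.44 and Zbp1 at 3.78 ± 1.77 TPM (SD, n = 3). Neighbors in this order had overlapping SDs. Within each tumor Bst2 was above Isg15 and Isg15 above Zbp1, while the order of Ifi27, Irf7 and Bst2 changed between tumors. These orders were not tested. The highest in normal lungs were Ifi27 at 6.88 ± 0.645, Ddx58 at 2.44 ± 0.354, Isg20 at 2.36 ± 0.482 and Bst2 at 2.24 ± 0.195 TPM (SD, n = 4), where Ifi27 stood above the rest and the next 3 did not differ beyond their spread. Zbp1 ranked 5 of the 37 in tumors and 29 in normal lungs, Irf7 ranked 2 in tumors and 12 in normal lungs, and Ddx58 ranked 8 in tumors and 2 in normal lungs. Rn7s1 took 19.864% to 43.252% of TPM in tumors and 36.547% to 43.771% in these normal lungs, which lowers the TPM of every other gene, so the values serve to order genes within a tissue.

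The parts of the pathway upstream of these genes were described with a list of 48 ligands, receptors, kinases, sensors and inhibitors. Interferon transcripts had few or no counts at this depth. Of 12 ligand genes, 6 (Ifna1, Ifna4, Ifna5, Ifne, Ifnl2 and Ifnl3) had 0 counts in all 13 libraries, where a count of 0 allows up to 3 counts per library. Ifnb1 had 3 counts, all in 1 normal lung library, and 0 in tumors. Ifng, the type II interferon, had 13 counts summed over tumors, 2 over tumor-bearing lungs and 2 over normal lungs. The highest count of any ligand in a library was 19, for Ifnk.

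Of the 36 upstream genes tested in tumors against normal lungs, 11 were higher (30.6%) and 10 lower (27.8%), close to the 29.4% and 27.4% over all genes, with a median log2 fold change of 0.18. The genes below are named by their p-values, not by their share. The receptor genes Ifnar1 and Ifnar2 were not called, with log2 fold changes of 0.29 and 0.06. Tmem173, which encodes the DNA-sensing adaptor STING, had 41.5, 42.3 and 33.2 CPM in tumors, 8.89, 7.21, 9.97 and 9.93 CPM in tumor-bearing lungs and 9.08, 6.69, 6.32 and 6.66 CPM in normal lungs (log2 fold change against normal lungs 2.44, SE 0.18, edgeR adjusted p = 5.32e-06). Every tumor was above every lung. The inhibitors Socs1, at 2.45, and Ptpn2, at 2.02, the RNA sensor Tlr3, at 1.64, and the interferon gamma receptor chain Ifngr2, at 1.03, were also higher on the log2 scale. Lower were the phosphatase Ptpn11 at −0.96, the inhibitor Pias1 at −0.93, the factors Irf2 at −0.94 and Irf3 at −0.55, the receptor chain Ifngr1 at −0.91 and the kinase Jak1 at −0.81. Against tumor-bearing lungs 10 of 37 were higher (27%) and 7 lower (18.9%), where the shares over all genes were 22.6% and 23.7%. In addition to Tmem173, Ptpn2, Tlr3 and Ifngr2, the genes with the smallest p included the DNA sensor Tlr9 at 1.48 among the higher ones and the interferon lambda receptor Ifnlr1 at −0.91 among the lower ones. In tumor-bearing against normal lungs 0 of 36 were called, and the smallest p-values belonged to Ptpn11 at −0.41 (edgeR adjusted p = 0.208), Socs1 at 1.07 (adjusted p = 0.276) and Irf1 at −0.42 (adjusted p = 0.281).

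A second list of 60 interferon-induced genes outside the 37 also held more higher than lower genes in tumors. Against normal lungs 30 of 60 were higher and 7 lower (11.7%), where 29.4% of all genes were higher and 27.4% lower, and the median log2 fold change was 0.78. Against tumor-bearing lungs 24 were higher (40%) and 5 lower (8.33%), where 22.6% of all genes were higher and 23.7% lower, and the median was 0.61. Apol9a, Apol9b, Trim30d, Oas1g and Ms4a4c were below 0.771 CPM, the cutoff of the filter on low counts, in every batch 2 normal lung. They passed that filter against normal lungs only through the tumors and are no support for those counts. Apol9a, Apol9b and Trim30d were also below the cutoff of 0.785 CPM in every lung of the second comparison. Asking for every lung misses genes that pass the cutoff in only a few. Csprs had 0.744, 0.677, 0.79 and 0.547 CPM in batch 2 normal lungs. In the second comparison Oas1g passed 0.785 CPM only in tumor-bearing lungs 6877 and 6881, and Csprs only in 6877 and 6880. Oas1g and Csprs may thus also have passed the filter through the tumors. The counts were not repeated without these genes. The antigen peptide transporter Tap1 had 167, 122 and 97.2 CPM in tumors and 15.5, 15.9, 14.5 and 14.9 CPM in normal lungs (log2 fold change 3.09, SE 0.18, edgeR adjusted p = 1.73e-06), with every tumor far above every normal lung. Lgals3bp, at 2.89, the GTPase Gbp2, at 2.62, the peptidase Lap3, at 2.44, and the ring finger protein Rnf213, at 1.75, followed, and Ly6e was among the leading genes against tumor-bearing lungs at 1.43. Apol9a had 606 counts over the tumors and 2 over the batch 2 normal lungs, a ratio of 424 after scaling to library size, with an exact 95% interval of 117 to 3510 that covers counting error only. Lower were Slfn5 at −2.05, the helicase gene Helz2 at −1.59, Ifitm1 at −1.46, the death ligand Tnfsf10 at −1.11, the ISG15-conjugating enzyme Ube2l6 at −0.89 and Znfx1 at −0.57, and Trim34a was lower against tumor-bearing lungs at −0.83. In tumor-bearing against normal lungs 0 of 54 were called. The smallest p-values belonged to Ms4a4c at 1.96 (edgeR adjusted p = 0.170), Tap1 at 0.84 (adjusted p = 0.194) and Ifitm2 at −0.69 (adjusted p = 0.194). Ms4a4c had 2.61, 1.49, 1.99 and 2.83 CPM in tumor-bearing lungs and 0.307, 0.762, 0.799 and 0.547 CPM in the normal lungs of this fit. It passed the filter on low counts only through the tumor-bearing lungs.

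Marker genes of immune and vascular cells also differed between the tissues. In this paragraph normal lung sums are of batch 2 where tumors are compared, and the lungs are then compared within each batch. The 10 monocyte and macrophage markers summed to 599, 490 and 396 CPM in tumors 6877, 6880 and 6881 and to 189 to 211 CPM in normal lungs, with 0 of the 10 at 0 in any group. The 9 natural killer cell markers summed to 48.7, 12.5 and 21.7 CPM in tumors in the same order and to 14.5 to 25.2 CPM in normal lungs. The tumors ranked 6877, 6881, 6880 in natural killer markers and in the members' sums, and 6877, 6880, 6881 in monocyte markers. T cell and B cell sums gave other orders, and no order of 3 animals was tested. The natural killer markers tested had a median log2 fold change of −0.02 in tumors against normal lungs. The 9 T cell markers summed to 89.7, 32.5 and 120 CPM in tumors and 41.4 to 79.8 CPM in normal lungs, and the 7 B cell markers to 5.75, 11.4 and 87.8 CPM in tumors and 22.7 to 66.3 CPM in normal lungs. The 8 plasmacytoid dendritic cell markers summed to 127 to 143 CPM in tumors and 154 to 191 CPM in normal lungs. Singly they were mixed. Of the 7 tested, 3 were called higher in tumors and 1 lower, where 29.4% of all genes were higher and 27.4% lower. Their median log2 fold change was 0.28, so the sum does not give the direction of each marker. The 8 alveolar macrophage markers summed to 5.51 to 25.8 CPM in tumors and 392 to 665 CPM in normal lungs, the 8 endothelial markers to 63.4 to 89.4 CPM in tumors and 1160 to 1340 CPM in normal lungs, and the 8 neutrophil markers to 22.3 to 35.6 CPM in tumors and 23.5 to 80.9 CPM in normal lungs. Car4 was in both the alveolar macrophage and the endothelial lists, so those sums share a gene and are not separate readings. Klra8, a natural killer marker, was at 0 in all tumors and in all lungs of batch 1, and Ly6g, a neutrophil marker, in all tumors and tumor-bearing lungs.

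Cell markers also moved between the lungs. The neutrophil markers summed to 65.8 to 161 CPM in tumor-bearing lungs and 18.1 to 20.0 CPM in normal lungs of batch 1, and to 164 CPM in tumor-bearing lung 6877 and 23.5 to 80.9 CPM in normal lungs of batch 2. The groups did not overlap in either batch. All 6 neutrophil markers tested had p below 0.05 before adjustment and were higher in tumor-bearing lungs, with a median log2 fold change of 2.31, and 0 were called by edgeR after adjustment. In batch 1 the endothelial markers summed to 1320 to 1810 CPM in tumor-bearing lungs and 2040 to 2410 CPM in normal lungs, and the alveolar epithelial markers to 6790 to 8460 CPM in tumor-bearing lungs and 9890 to 11200 CPM in normal lungs. In batch 2 tumor-bearing lung 6877 had 1150 CPM of endothelial markers, against 1160 to 1340 CPM in normal lungs, and its 13400 CPM of alveolar epithelial markers lay within the 12600 to 14700 CPM of normal lungs. Natural killer sums were 14.9 to 17.6 CPM in tumor-bearing lungs and 11.7 to 12.8 CPM in normal lungs of batch 1, and 31.6 CPM in tumor-bearing lung 6877 and 14.5 to 25.2 CPM in normal lungs of batch 2. T cell sums were 49.0 to 57.7 CPM in tumor-bearing lungs and 33.1 to 43.3 CPM in normal lungs of batch 1, while in batch 2 the 65.8 CPM of tumor-bearing lung 6877 lay within the 41.4 to 79.8 CPM of normal lungs. Alveolar macrophage sums were 117 to 175 CPM in tumor-bearing lungs and 176 to 252 CPM in normal lungs of batch 1, while in batch 2 the 538 CPM of tumor-bearing lung 6877 lay within the 392 to 665 CPM of normal lungs. The part of these cell types in the results was not tested.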

How the data were processed

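RNA from 20 mg of snap-frozen tissue entered libraries at 100 ng after ribosomal RNA removal, read as single 75 bp reads (NextSeq500), per the labels' protocols. Fragmentation depended on an RNA quality not given for each library. Tools listed in the submitters' processing notes are Salmon (version not given in the sources used here) and DESeq2 1.18.1, with build mm10. The authors deposited estimated counts (expected counts) and TPM per gene ID. Count and TPM differed by 1 factor per gene and 1 per library (largest log2 deviation 8.88e-15 over 2898 genes), and 0 columns belonged to no sample. Of 46679 IDs, 46269 were named from GENCODE M21 (GRCm38) and 410 were not.

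Counts were rounded and tested two-sided with edgeR 4.0.16 in R 4.3.3 (quasi-likelihood, TMM, filterByExpr, threshold 0.05), with CPM on a prior count of 2 for log2 values. The mouse was the replicate. Tumor-bearing against normal lung used 8 lungs, 1 library per mouse (batch 1 for mice 6886 and 6888), with a batch term; tumor against normal lung used 7 batch 2 libraries; tumor against tumor-bearing lung used 11 libraries with a batch term. Tumors and lungs of mice 6877, 6880 and 6881 come from the same animals, and their residuals correlated at 0.178, 0.0359 and −0.129 across genes. Alternatives were other scalings and filters, DESeq2 1.42.0, voom of limma 3.58.1, limma on log2 TPM with pseudocounts of 1 and 0.1, other uses of batches and repeats, and leaving out each library. Shared 75-base stretches were counted over GENCODE M21 transcripts.

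The members, lists and tests were chosen with earlier results of these data known. Values per library are given for the 8 members with the smallest p between lungs, up to 8 called members per direction in tumor against normal lung (4 by smallest p where none was called), up to 4 per direction against tumor-bearing lung, and the most abundant member of each role; other lists name up to 6 per direction, or 3 where none was called. Ifnar1, Ifnar2, Oas1b, Oas1c and Oas1g were named outside this rule, after their values were seen. For 1 upstream gene the rule named, the result is not reported here. Intervals and floors cover counting error only, because reads amplified by PCR and counted without molecular identifiers are not independent.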

Additional observations from a re-analysis of the deposited data

Results flagged for a closer look

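In 6 of the 111 sets of 4 libraries examined, 1 library stood apart from the other 3 by Dixon's criterion at the 95% level, and chance alone flags about 1 in 20. Each value given first is the gap divided by the range of the set.

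Usp18 in tumor-bearing lung 6881 had a ratio of 0.868, with 6.02 CPM beside 7.72 to 8.02 CPM in the other 3. Ifih1 in tumor-bearing lung 6880 had a ratio of 0.834, with 28.1 CPM beside 22.3 to 23.1 CPM. Zbp1 in tumor-bearing lung 6877 had a ratio of 0.845, with 4.25 CPM beside 1.59 to 1.86 CPM, and that lung was the only one of its group prepared in batch 2. Herc6 in tumor-bearing lung 6880 had a ratio of 0.833, with 8.43 CPM beside 12.4 to 13.4 CPM. Eif2ak2 in normal lung 6887, with each mouse counted once, had a ratio of 0.847, with 20.5 CPM beside 14.3 to 15.1 CPM. That set used the batch 1 libraries of mice 6886 and 6888, and mouse 6886 had 21.4 CPM in batch 2. Ifit3b in normal lung 6887 among the batch 2 libraries had a ratio of 0.844, with 10.6 CPM beside 7.73 to 8.12 CPM.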

How the results depend on the processing

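For tumor-bearing against normal lung 0 members were called in all 22 alternatives. The count over all genes, 6, was 275 with no filter, 426 with DESeq2, 90 and 65 on TPM with pseudocounts of 1 and 0.1, 1 without a batch term, 39 in batch 1 alone, 1 when the repeated mice entered by batch 2 and 42 with all lung libraries. Leaving out 1 library gave 0 to 221 (tumor-bearing lung 6877 left out gave 221, normal lung 6887 gave 16, and normal lung 6886 or tumor-bearing lung 6879, 6880 or 6881 gave 0) and member medians of 0.06 to 0.20. The median, 0.14, was 0.00 with library totals and −0.18 and −0.46 on TPM with pseudocounts of 1 and 0.1. On TPM with these pseudocounts Ddx58 was −0.19 and −0.26, Adar −0.16 and −0.29, Ifih1 −0.18 and −0.29 and Ifi35 −0.25 and −0.37.

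For tumor against normal lung the median of 0.91 was 0.78 with upper-quartile scaling, 0.79 with library totals, 0.22 and 0.67 on TPM and 1.19 with 11 libraries and a batch term. Upper-quartile scaling and library totals shifted the median of all genes to −0.16 and −0.15. Leaving out 1 library gave medians of 0.85 to 1.27, 20 to 23 members called and 9095 to 10299 genes called. Signs turned for Usp18 (−0.02 with upper-quartile scaling, −0.01 with library totals, −0.04 on TPM with a pseudocount of 0.1; leaving out 1 library −0.26, without tumor 6877, to 0.29), Ifit2 (leaving out 1 library −0.18, without tumor 6877, to 0.65), Stat2 (0.00 with 11 libraries; leaving out 1 library −0.27 to 0.17, without tumor 6880), Ddx58 (0.03 with 13 libraries; leaving out 1 library −0.09 to 0.03, with 0.02 without normal lung 6887 and 0.01 without normal lung 6893) and Rsad2 (0.36 with 11 libraries; leaving out 1 library −0.56 to 0.62, without normal lung 6886, and 0.31 without tumor 6880). None of these was called.

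For tumor against tumor-bearing lung the replicate block pairs the tissues of a mouse and was run on all 13 libraries. It gave 8607 calls over all genes, 20 members and a median of 0.86. The main fit of 11 libraries gave 8471 calls, so the difference is not that of pairing alone. Calls over all genes were 5322 on TPM with a pseudocount of 1. The median of 0.84 was 0.70 with upper-quartile scaling (all genes −0.24), 0.43 on TPM with a pseudocount of 1, 1.11 in batch 2 alone and 1.2 with no batch term. Leaving out 1 library gave medians of 0.77 to 1.06, 13 to 19 members and 6444 to 8375 genes called. The cause of these changes was not tested. The lung groups and the tumor and normal groups share no mouse, so no block applied there.

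Members such as Oasl1, Oas2 and Mx1 were counted at a few CPM or less in lung, so small changes there were not detectable at this depth. With 3 or 4 animals a group, differences that missed the threshold are not shown to be absent.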
